A study of Mus musculus with 24 samples.

Results

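Type I interferon effector genes are the genes whose products carry out the antiviral state. A list of 46 of them, chosen by gene symbol and sorted by role, was followed in cells taken from mouse brain slices. The list was chosen with earlier results of these data known. Shares of its members set beside those of all genes are thus descriptions, not tests. In each of 2 deposited tables, 1 for endothelial cells and 1 for microglia, 44 of the 46 were found among 20555 genes. Mx1 and Mx2 were not analysed here. Epsti1 had no reads in any endothelial library, so 43 of the 44 could be tested there and 44 in microglia.

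Slices of mouse brain were treated with exosomes, small vesicles released by cells, at 5 µg per slice for 2 days, or with phosphate-buffered saline (PBS). The exosomes carried PKH67, a green membrane dye, and were called wild type (WT), KO1 or KO2, for 2 knockouts. The series title names CEMIP, a protein of tumour exosomes that acts on hyaluronan, and the labels do not name the knocked-out gene or the donor cells. Endothelial cells, which line blood vessels, were sorted by CD31 on cells without CD45. Microglia, macrophages that live in brain tissue, were sorted by CD45 at low levels of CD11b and CD49d. All groups share the slice culture, dissection of the outer ring of the slice, digestion and myelin removal, and the labels give no strain or age. The labels call every sample exosome-positive, PBS included, so the gate used for PBS is unclear. Each library carries a letter, A, B or C, whose meaning is not given, and nothing says that letters are separate animals or cultures. A p-value here weighs a difference against the spread of the samples at hand, and that spread may be technical only. For endothelial cells there were 3 libraries each of PBS and KO1 and 2 each of WT and KO2, where WT C and KO2 A were not analysed here. For microglia there were 3 libraries of each exosome group and 2 of PBS, where PBS C was not analysed here. The RNA is that of the recipient cells, so the knockout itself could not be checked in it.

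Type I interferons, interferon beta and the interferon alphas, bind the receptor of Ifnar1 and Ifnar2. The kinases Jak1 and Tyk2 then start a signal to the nucleus, where Stat2 and Irf9 act in the complex ISGF3. ISGF3 binds a DNA element, the interferon-stimulated response element, near its target genes. In the brain, both endothelial cells and microglia can answer interferon this way, and Irf7, itself a target, widens the response.

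Values below are normalised counts, read numbers corrected for library size, recovered from the deposited log2 values. They are listed in the order of the letters. The deposited values are variance-stabilised, a log2 scale that compresses differences, and all tests were made on that scale. A count of 0 stands at 13.3 on it in endothelial cells and at 9.89 in microglia. The compression is strongest at low counts but also reaches well expressed genes. Endothelial Isg15 had mean counts of 1354 in PBS and 11586 in WT, a ratio of 8.56, and a log2 difference of 0.93. Log2 differences on this scale are thus not log2 fold changes, and their size depends on a gene's level. The estimated depth was 18.3 to 35.6 M reads per endothelial library and 21.5 to 44.2 M per microglial library. Pecam1, the gene of CD31, was at 42620 to 56200 counts in the endothelial libraries, and Ptprc, the gene of CD45, was at 0 in 8 of the 10. In microglia Ptprc was at 1530 to 3978 and Pecam1 at 0 to 283. Itgam, the gene of CD11b, was at 0 to 27.3 in 7 endothelial libraries and at 1226, 1298 and 438 in the exosome libraries lettered B (WT, KO1 and KO2 in turn). In microglia Itgam was at 1363 to 3377 in the libraries lettered A and B, PBS included, and at 430.4, 767 and 632 in WT C, KO1 C and KO2 C, the libraries of lowest effector genes among those with exosomes. The part of cells with Itgam in the results was not tested.

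Of the 46 genes, 36 have an entry in the RefSeq promoter table (GRCm38.p6), which gives 250 bases before to 50 bases after a gene's start. The core of the response element, spelled GAAA, then any 2 bases, then GAAA, was searched on both strands, and overlapping matches were allowed. It was found in 14 of the 36 (38.9%) and in 1079 of all 27025 genes in the table (3.99%). The 14 were Bst2, Eif2ak2, Ifi207, Ifit1, Ifit3, Ifitm3, Isg15, Lgals9, Oas1a, Oas3, Rsad2, Slfn5, Slfn8 and Trim30a. The core of the gamma-activated site, TTCNNNGAA, which overlaps the first motif where both share GAA or TTC, was found in 8 of the 36 (22.2%) and in 9.55% of all genes. A match is a description of letters, not a bound site. Windows of 60 bases around the match nearest the start are shown for the genes whose values the results turn on. They are read 5′ to 3′ along each gene's strand, with the core in capitals and overlapping cores run together. A core on the other strand reads TTTC, any 2 bases, TTTC. Windows that touched an annotated exon were left out.
Isg15, chr4:156200850-156200909, minus strand: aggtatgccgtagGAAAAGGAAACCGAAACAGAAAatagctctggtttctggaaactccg
Ifit1, chr19:34640779-34640838, plus strand: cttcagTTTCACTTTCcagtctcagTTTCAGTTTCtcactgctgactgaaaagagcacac
Ifit3, chr19:34583382-34583441, plus strand: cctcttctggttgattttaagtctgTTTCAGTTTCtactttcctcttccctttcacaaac
Rsad2, chr12:26456538-26456597, minus strand: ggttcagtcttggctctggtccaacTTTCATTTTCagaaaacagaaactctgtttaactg
Bst2, chr8:71537562-71537621, minus strand: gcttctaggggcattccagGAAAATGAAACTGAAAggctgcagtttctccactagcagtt
Trim30a, chr7:104465195-104465254, minus strand: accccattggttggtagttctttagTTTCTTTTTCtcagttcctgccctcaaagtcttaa
Slfn5, chr11:82951922-82951981, plus strand: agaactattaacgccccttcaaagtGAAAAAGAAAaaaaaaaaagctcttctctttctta
The core began 66 bases before the start in Isg15, 85 in Ifit1, 122 in Ifit3, 120 in Rsad2, 124 in Bst2, 36 in Trim30a and 155 in Slfn5. The windows of Ifit3 and Slfn5 lie inside the spans that RefSeq gives these genes, outside annotated exons, and the other windows lie upstream of the gene. Slfn5 is shown because it holds the same core as the others and yet lay on the opposite side of PBS in WT endothelial cells.

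In endothelial cells most effector genes were higher with WT exosomes than with PBS. On the deposited log2 scale 36 of the 43 tested were higher and 7 lower, with a median difference of 0.32, beside -0.01 over all 12972 genes. The values of every WT library lay above those of every PBS library for 27 of the 43, a separation met by 13.3% of all genes tested. The count was 30 (33.6% of all genes) without WT A and 34 (29.7%) without WT B, where 1 WT library is left. Ratios of the group means of counts were 2-fold or more for most: Isg15 8.56, Ifi44 13.1, Rsad2 6.64, Bst2 5.79 and Ifitm3 3.49. None of the 43 passed the test in this contrast: the lowest adjusted p was 0.344 (limma with Benjamini-Hochberg adjustment over all genes), and 0.0231% of all genes were called. At an unadjusted p under 0.05 there were 16 members, each of them higher, beside 9.71% of all genes. That number was 4 without WT A and 10 without PBS B or without PBS C, and in the first of these the lone WT library was assumed to vary like the other groups. Fewer genes were detected in most exosome libraries: 11305 to 11952 genes had a count above 0 in PBS, 9235 and 10607 in WT, 9516, 11531 and 9869 in KO1, and 10739 and 9912 in KO2. Relative to the PBS mean on that scale, the log2 of counts plus 10 had a median over all tested genes of -0.23 in WT A, -0.18 in KO1 A, -0.12 in KO1 C, -0.12 in KO2 C and -0.04 to 0.01 in the B libraries with exosomes. The part of detection in the WT difference was not tested. In sorted bulk samples, more cells that express a gene and more RNA per cell cannot be told apart.

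**Figure D1:**
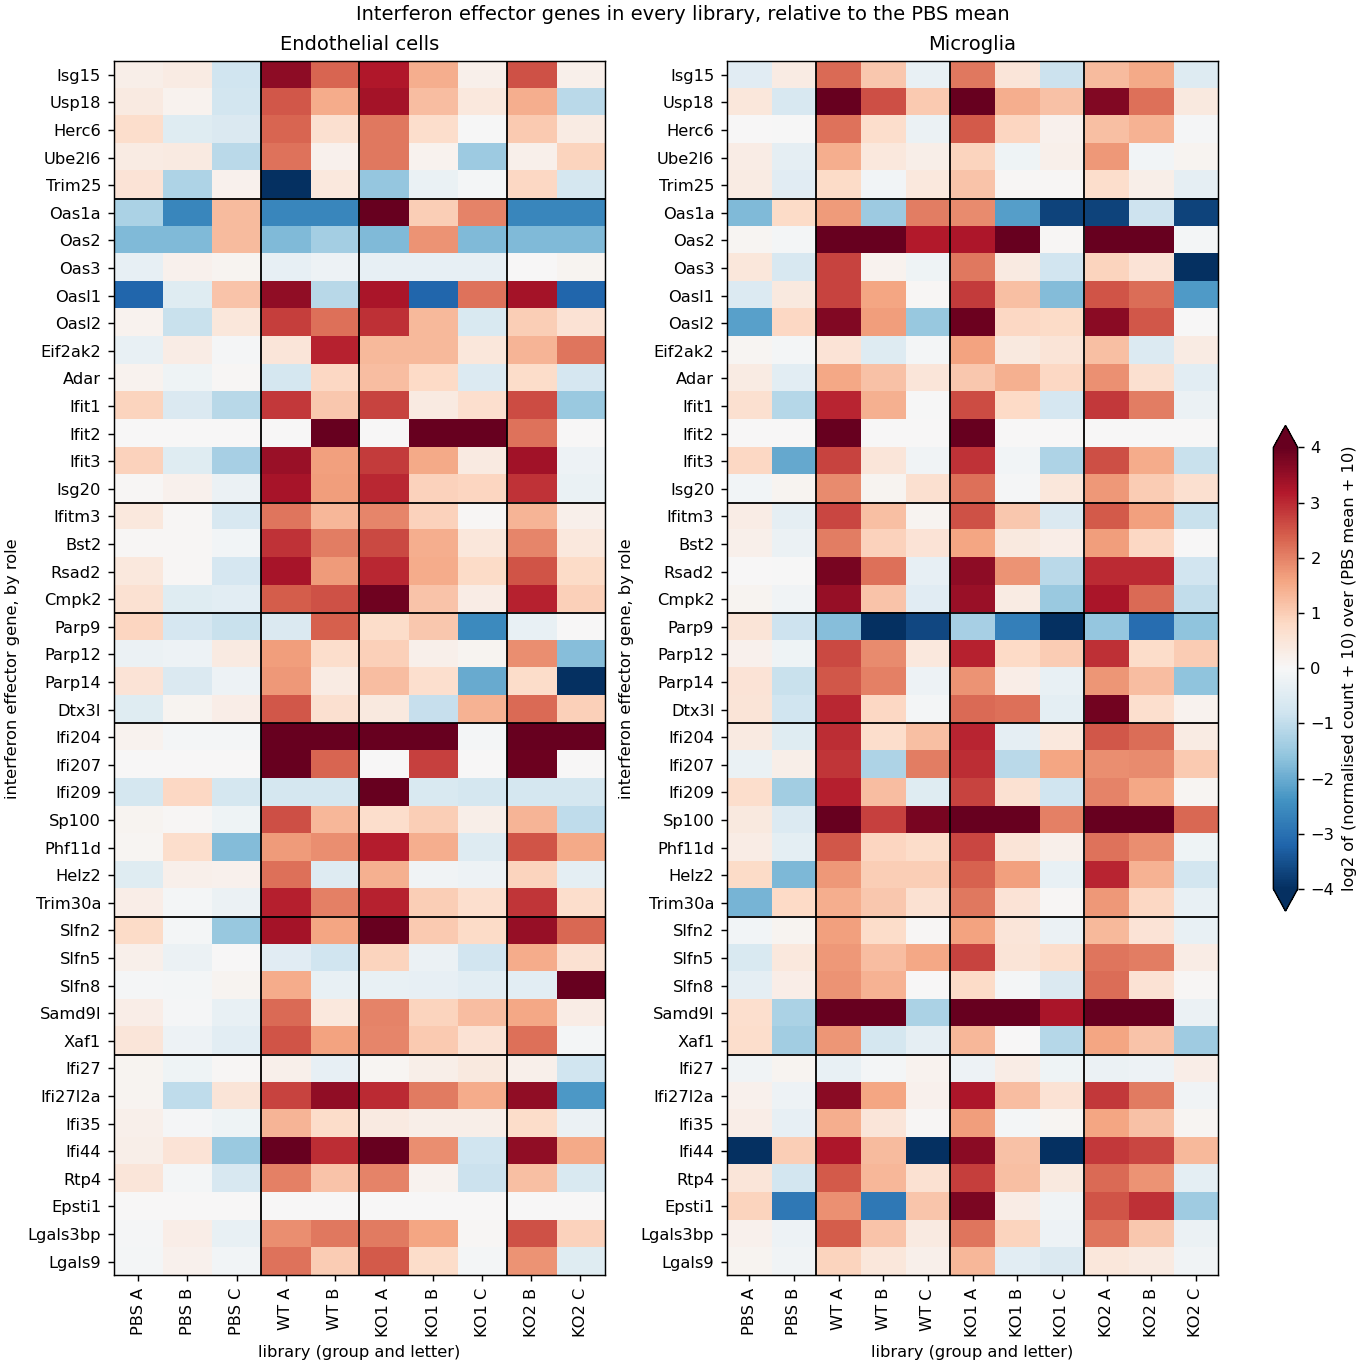
Each tile is 1 effector gene (vertical axis, grouped by role, black lines between roles) in 1 library (horizontal axis, group and letter), coloured by log2 of its normalised count plus 10 over the PBS mean plus 10, with colours capped at 4 either way. Red tiles dominate the columns lettered A and B of WT, KO1 and KO2 in both cell types and thin out in those lettered C, while Parp9 is blue in every exosome library of microglia.

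The genes of ISG15 conjugation attach the ubiquitin-like protein Isg15 to other proteins or remove it. In endothelial cells 4 of these 5 genes were higher with WT exosomes and 1 lower, with none passing the test. Isg15 was at 1592, 1689 and 781 in PBS, 16280.1 and 6892 in WT, 12641, 3755 and 1555 in KO1, and 7889.5 and 1575 in KO2. Both WT libraries and the A and B libraries of the knockouts lay above all PBS libraries, while the C libraries of KO1 and KO2 lay among them. KO1 C and KO2 C were at 1.99 and 2.02 times PBS C, the lowest PBS library. The means were 1354 ± 499 (SD, n = 3) in PBS and 11586 ± 6638 (SD, n = 2) in WT, a log2 difference of 0.93 (SE 0.29). Usp18, the protease that removes Isg15 and dampens the receptor, was at 2302, 1984 and 1074 in PBS, 9997 and 5003 in WT, 18122, 4191 and 2383 in KO1, and 4894 and 836 in KO2. KO1 A was its highest library and KO2 C its lowest, below every PBS library. Trim25, a ubiquitin ligase of the RNA-sensing pathway, was the member that was lower, at 2526, 732 and 1952 in PBS, 0 and 2327 in WT, 594, 1444 and 1654 in KO1, and 3094 and 1073 in KO2. WT B lay inside the PBS range and WT A had no reads, and the log2 difference of -0.24 (SE 0.20) became 0.11 without WT A.

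Among the 11 genes whose products bind or degrade RNA, 8 were higher and 3 lower in WT than in PBS endothelial cells. Ifit1, which binds RNA lacking the host's cap methylation, was at 3264, 1175 and 797 in PBS, 12415 and 3678 in WT, 11389, 2229.8 and 2812 in KO1, and 10637 and 621 in KO2. Its partner Ifit3 was at 3620.4, 1356 and 757 in PBS, 20959 and 6040.4 in WT, 13348, 5517 and 2435 in KO1, and 19692 and 1657 in KO2. For both genes every WT library was above every PBS library, and KO2 B lay near the libraries lettered A. Ifit2 had no reads in PBS and was at 0 and 1982 in WT, 0, 1589.7 and 1523 in KO1 and 34.9 and 0 in KO2. In WT and KO1 the A library was at 0 while the B library was well above it, the reverse of the order in Ifit1 and Ifit3. Eif2ak2, the kinase PKR that stops translation on double-stranded RNA, was at 187, 288 and 228 in PBS, 332 and 2041 in WT, 584, 591 and 326 in KO1, and 621 and 1062 in KO2, with every exosome library above every PBS library. Oas1a, Oas2 and Oas3, whose products start RNA decay by RNase L, were at 0 to 1187 counts, 0 to 109.8 and 0 to 4.11. Oas1a was at 0 in 5 libraries and Oas2 in 7, and Oas3 was close to 0 in all 10. The Ifit and Oas genes have close copies, so reads they share may be split among them and single values are uncertain.

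All 4 genes grouped as membrane and virus entry or budding were higher in WT than in PBS. Cmpk2, a nucleotide kinase, was counted in this group. Ifitm3, which blocks fusion of viruses with the cell, was at 52539, 40609.9 and 25556 in PBS, 176242 and 99669 in WT, 154094, 74447 and 40741 in KO1, and 100620 and 45959.8 in KO2. Bst2, or tetherin, which holds budding virus at the surface, was at 1803, 1834 and 1649 in PBS, 13143 and 7257 in WT, 10992, 4822 and 2441 in KO1, and 6812 and 2376 in KO2. Rsad2, or viperin, which makes a chain-ending nucleotide, was at 1443, 1119 and 674 in PBS, 10773 and 3546 in WT, 8838, 3061 and 1838 in KO1, and 6278 and 1856 in KO2. In each of the 3, both WT libraries lay above all PBS libraries. For Bst2 and Rsad2 this held for every exosome library, C included, while KO1 C and KO2 C of Ifitm3 lay inside the PBS range. Bst2 had the smallest p of all members, with 1762 ± 98.7 (SD, n = 3) in PBS, 10200.1 ± 4162 (SD, n = 2) in WT and a log2 difference of 0.79 (SE 0.21, 95% interval 0.31 to 1.26). The log2 difference of Ifitm3 was 1.43 (SE 0.46).

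**Figure D2:**
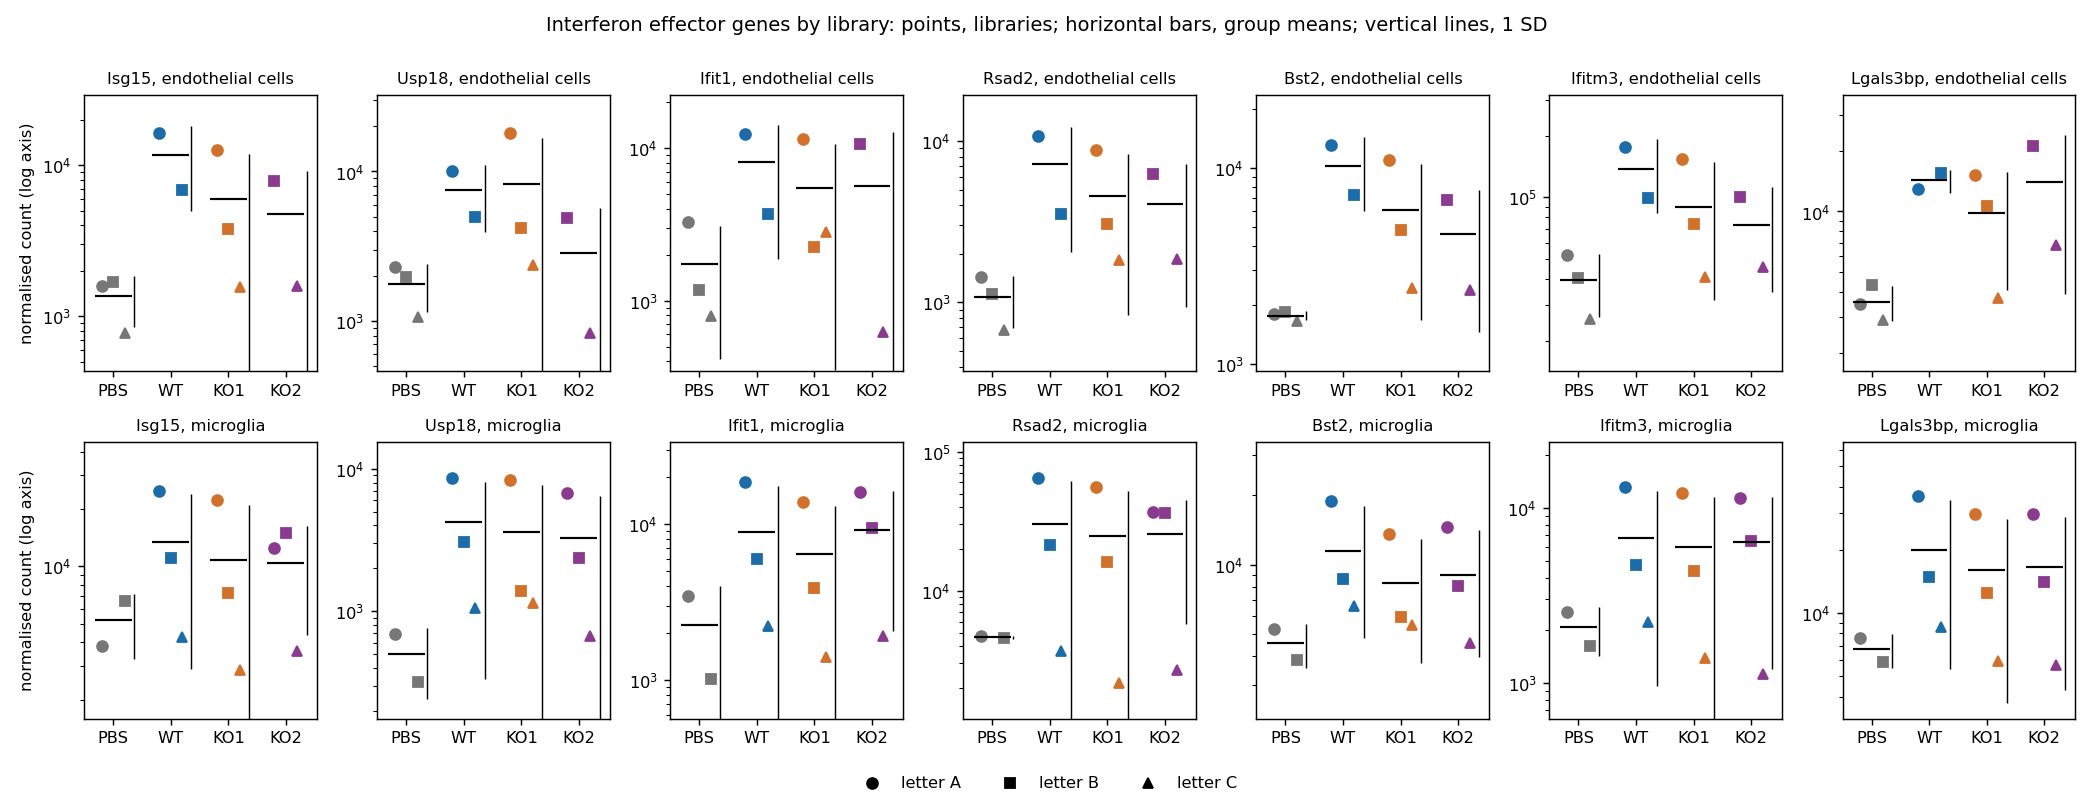
Normalised counts (log axis) of 7 effector genes in endothelial cells (upper row) and microglia (lower row) by group; points are libraries with shapes for the letters, horizontal bars are group means and vertical lines show 1 SD, running off the axis where the SD exceeds the mean. The circles (A) lie above the triangles (C) in all 7 genes wherever a group holds both letters. These groups are WT, KO1 and KO2 in microglia and PBS and KO1 in endothelial cells. The SD of an exosome group is often close to its mean.

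Of the 7 genes grouped as nuclear and DNA-binding, 6 were higher with WT exosomes in endothelial cells. Sp100, a component of nuclear bodies, was at 767, 723 and 625 in PBS, 4242 and 1798 in WT, 1159, 1411 and 823 in KO1, and 1813 and 346 in KO2. Both WT libraries were above all PBS libraries, and KO2 C was below them. The log2 difference for WT was 0.38 (SE 0.12). Trim30a, a restraint on NF-kB signalling, was at 637, 499 and 444 in PBS, 4643 and 2155 in WT, 4558, 1048 and 838 in KO1, and 3888 and 867 in KO2, with all 7 exosome libraries above all 3 PBS libraries. Helz2, a helicase that co-activates nuclear receptors, was at 812, 1307 and 1285 in PBS, 5260.2 and 797 in WT, 3057, 1024 and 980.5 in KO1, and 2097 and 864 in KO2. WT A stood high while WT B lay just below PBS. Ifi204, a DNA sensor of the Ifi200 family, had 1.54, 0 and 0 counts in PBS, 754 and 334 in WT, 1109, 183 and 0 in KO1 and 359 and 363 in KO2. Its relative Ifi207 had no reads in PBS and was at 432 and 40.4 in WT, 0, 57.1 and 0 in KO1 and 141 and 0 in KO2. Both had reads in both WT libraries, and Ifi207 was at 0 in 3 knockout libraries. Ifi204, Ifi207 and Ifi209 all lie on chromosome 1 and resemble each other, so their shared reads are uncertain.

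The ADP-ribosylation genes were all 4 higher in WT than in PBS, by 0.11 to 0.31 on the log2 scale. Parp12, which acts against RNA viruses, was at 1428, 1485 and 2172 in PBS, 5436 and 2789 in WT, 3257, 1963 and 1809.8 in KO1, and 6189 and 514 in KO2, and Parp14 at 2176, 979.8 and 1282 in PBS, 4965 and 1849.7 in WT, 3513, 2355 and 359.7 in KO1, and 2485 and 0.9 in KO2. Parp12 and Parp14 were both lowest in KO2 C, and Parp14 was nearly absent there. Among the 5 genes of the Schlafen and growth or death control group, 4 were higher and Slfn5 lower. Samd9l, which restricts translation in infected cells, was at 3686, 2959.6 and 2492 in PBS, 14699 and 4077 in WT, 11993, 5678 and 7216 in KO1, and 8874 and 3773 in KO2. Xaf1, which promotes cell death, was at 2024, 1256 and 1072 in PBS, 8335 and 4444 in WT, 5631, 2990.4 and 2173 in KO1, and 6730.4 and 1372 in KO2. Every exosome library of Samd9l exceeded every PBS library, and Xaf1 lay inside the PBS range in KO2 C alone.

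Of the 7 tested genes in the remaining group, 6 were higher and 1, Ifi27, lay 0.01 lower. Lgals3bp, a secreted binder of galectin 3, was at 3492, 4339.9 and 2921 in PBS, 12943 and 15577 in WT, 15182, 10611 and 3737 in KO1, and 21039.6 and 6831 in KO2. Lgals9, a galectin that modulates immune cells, was at 3941, 4722 and 3853 in PBS, 19028 and 8494 in WT, 22817, 6900.5 and 3978 in KO1, and 14541 and 2995 in KO2. Both had all WT libraries above all PBS libraries, with KO1 C inside the PBS range. Ifi35, a cytosolic regulator of the response, was at 2619.7, 2197 and 2016 in PBS, 5823 and 3780.4 in WT, 2936, 2682 and 2697 in KO1, and 3821 and 1919 in KO2. Its WT libraries were above all PBS libraries, with a log2 difference of 0.29 (SE 0.092), while the KO1 libraries lay just above PBS and KO2 C below it. Ifi27, an interferon-induced mitochondrial protein, ran between 1286 and 2923 counts in all 10 libraries, and its relative Ifi27l2a ran from 0 to 564. The span of Ifi27 lies inside that given for Ifi27l2a on chromosome 12, so their split is uncertain in both cell types.

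Endothelial libraries with high effector genes also held more counts of choroid plexus markers. The summed markers of choroid plexus and ependyma, the epithelia that line the ventricles, were 965 to 7390.2 counts in PBS. They were 233541 in WT A, 205190 in WT B, 201747 in KO1 A, 359990 in KO1 B, and 312614 in KO2 B. In KO1 C and KO2 C they were 6727 and 22988. Of the 12 markers, 11 reached 100 counts in some library and none was at 0 throughout. The summed effector genes took 0.247 to 0.397% of a PBS library, 1.5% of WT A, 0.851% of WT B, 1.43% of KO1 A, 0.635% of KO1 B, 1.07% of KO2 B, 0.361% of KO1 C and 0.369% of KO2 C. The library with most choroid plexus markers, KO1 B, had the fifth highest share of effector genes. Fibroblast and meningeal markers were 593 to 1501 in PBS and 166 to 10562 in exosome libraries, with 7 of 10 reaching 100 counts and Slc6a13 at 0. The pericyte list was 2154 to 4501 in PBS and 432 to 8050 with exosomes, and the list of border-associated macrophages 8559 to 12901 and 8049 to 19129. Of the 10 border-associated macrophage markers, 5 reached 100 counts, and Cd163, Cbr2, Cd209f and Clec10a were at 0 in every library. The microglial list was 782 to 1028 in PBS and 71.7 to 2284 with exosomes, with P2ry12 and Sall1 at 0 in every library. The endothelial list was 273624 to 301025 in PBS and 228951 to 270840 with exosomes. The astrocyte list, with 7 of 10 markers reaching 100 counts and none at 0 throughout, was 18774 to 41069 in PBS, 8379 to 16574 in WT, 12733 to 24392 in KO1, and 18651 to 18667 in KO2, so that WT lay below PBS. The dendritic cell list was 447 to 977 in PBS, 1632 and 1739.9 in WT, 91.2 to 792 in KO1, and 16.2 to 924 in KO2, with 2 of 10 markers reaching 100 counts and Flt3, Cd209a, Bst1, Klk1 and Ly6d at 0 throughout. The monocyte and neutrophil list stood highest in KO1 C and KO2 C, at 24279.6 and 24348 against 8349.9 to 16485 in the other 8 libraries, with 2 of 10 markers reaching 100 counts and Ly6g and Plac8 at 0. The oligodendrocyte list was 1053 to 1851 in PBS and 509 to 3311 with exosomes, and the lists of oligodendrocyte precursors, neurons, lymphocytes and erythrocytes reached 693 counts at most. The part of these markers in the endothelial result was not tested.

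**Figure D3:**
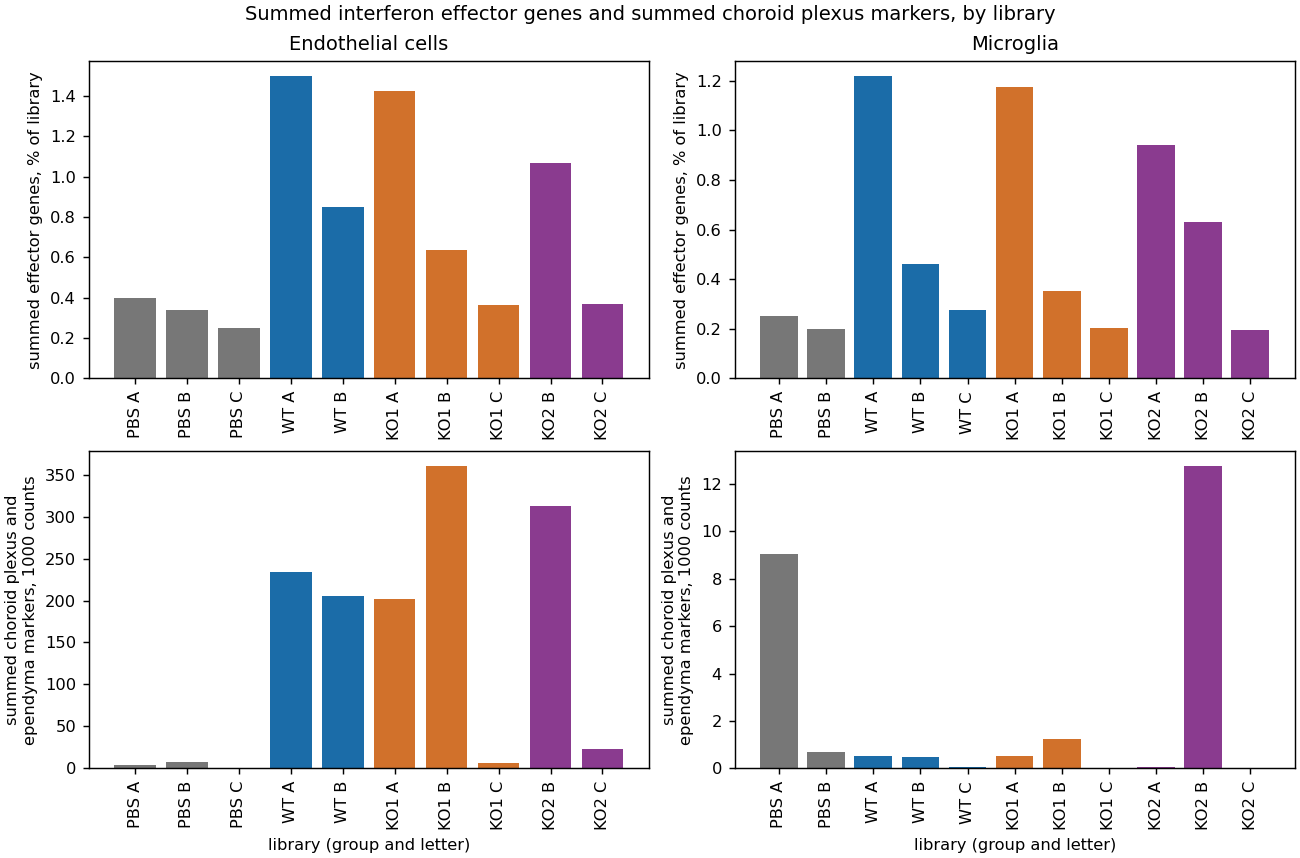
Upper bars give the summed effector genes as a percentage of each library's normalised counts, lower bars the summed choroid plexus and ependyma markers in normalised counts, scaled as the axis label states (the lower axes differ between cell types), for endothelial cells (left) and microglia (right), coloured by group. In endothelial cells both are high in the exosome libraries lettered A and B, while in microglia the 3 tallest effector bars, all lettered A, stand over marker sums of 71.4 to 539 counts.

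In microglia 42 of the 44 effector genes were higher with WT exosomes than with PBS and 2 lower. The median log2 difference was 0.57, beside 0.00 over all 12709 genes, and it was 0.27 without WT A. The values of every WT library lay above those of both PBS libraries for 14 of the 44, beside 7.81% of all genes. That count was 33 (15.4% of all genes) without WT C, 21 (20.5%) without PBS B and 26 (19.2%) without PBS A. None of the 44 passed the test, with a lowest adjusted p of 0.907 (limma, Benjamini-Hochberg), where 0.00787% of all genes were called. This fit, like the others in the results, had no term for the letter. Fits with the letter as a block, in which some members were called in microglia, are given in the closing section on processing. At an unadjusted p under 0.05 there was 1 member, Parp9, which was lower, beside 4.98% of all genes. Without the C libraries 16 reached that level, and 0 (without PBS A) to 7 (without WT C) with 1 library left out. The choroid plexus list was at 9030.4 counts in PBS A, 12754 in KO2 B and 28.9 to 1257 elsewhere, with Otx2 at 0 throughout. In WT A, KO1 A and KO2 A, the microglial libraries with the highest share of effector genes, it was 539, 521 and 71.4. The endothelial list reached 933 counts at most, with Flt1 and Slco1a4 at 0. The list of border-associated macrophages was 4807 and 2767 in PBS A and B, 4665, 9100.1 and 3259.5 in WT, 5087, 9376 and 2489 in KO1, and 5317, 7753 and 2672 in KO2, with 5 of 10 markers reaching 100 counts and Cd163, Cbr2 and Cd209f at 0 throughout. It was highest in the exosome libraries lettered B, whereas the effector genes took their highest shares in those lettered A. The monocyte and neutrophil list was 4.78 to 57.0 in PBS, 12.05 to 389 in WT, 34.1 to 162 in KO1 and 107 to 158 in KO2, highest in WT A, with 3 of 10 markers reaching 100 counts and Ly6g and Retnlg at 0. The dendritic cell list was 1847 to 2501 in PBS, 609.7 to 1309 in the exosome libraries lettered A and B and 1726 to 1940.2 in those lettered C, with 6 of 10 markers reaching 100 counts and Clec9a, Cd209a, Klk1 and Ly6d at 0. The part of these markers in the microglial result was not tested.

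The ISG15 conjugation genes were all 5 higher in WT than in PBS microglia. Isg15 was at 3848 and 6585 in PBS, 24925, 11079 and 4289.6 in WT, 22388, 7262 and 2869 in KO1, and 12463, 15004 and 3615 in KO2. Usp18 was at 691 and 318 in PBS, 8553, 3052 and 1055 in WT, 8338, 1387 and 1152 in KO1, and 6766, 2355 and 672 in KO2. WT C, KO1 C and KO2 C of Isg15 lay inside or below the PBS range, whereas for Usp18 every WT library was above both PBS libraries and KO2 C alone lay within the PBS range. The Usp18 means were 505 ± 264 (SD, n = 2) in PBS and 4219.9 ± 3883 (SD, n = 3) in WT, a ratio of 8.36.

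All 11 RNA-binding and RNA-degrading genes were higher in WT, with a median log2 difference of 0.27. Ifit1 was at 3479.7 and 1021 in PBS, 18633, 6002 and 2231 in WT, 13903, 3913 and 1399.7 in KO1, and 16048, 9409 and 1917 in KO2. Ifit3 was at 4217 and 571 in PBS, 15739, 3381 and 2165 in WT, 17699, 2228 and 1015 in KO1, and 14278, 6677 and 1296 in KO2. In both genes the A libraries were highest in each exosome group, followed by B and C, and the C libraries lay inside the PBS range. For Ifit3, WT B and KO1 B lay inside it as well. Adar, which edits double-stranded RNA, was at 2415 and 1439 in PBS, 5655, 4375 and 2727 in WT, 4078, 5155 and 3408 in KO1, and 6865, 2979 and 1423 in KO2, with all WT libraries above PBS (log2 difference 0.66, SE 0.34). Oas2 had 1.07 and 0 counts in PBS, 260.0, 197 and 85.6 in WT, 89.9, 268 and 0.765 in KO1 and 637, 557 and 0 in KO2. It was thus near 0 in PBS and in KO1 C and KO2 C, and present in the other 7 libraries. Eif2ak2, at 323 and 289 in PBS, 448, 209 and 291 in WT, 948, 406 and 445 in KO1, and 713, 205 and 387 in KO2, did not separate the groups.

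The 4 genes grouped as membrane and virus entry or budding were all higher. Their median was the largest of any role group on the deposited log2 scale, 0.97. Rsad2 was at 4711 and 4551 in PBS, 65112, 21442 and 3671 in WT, 55540.2, 16005 and 2168 in KO1, and 37067, 36485 and 2700.3 in KO2. Bst2 was at 5242 and 3854 in PBS, 18960.3, 8706 and 6596 in WT, 13640, 5930.0 and 5455 in KO1, and 14540, 8045 and 4551 in KO2. Rsad2 spanned more than an order of magnitude within each exosome group and its 3 C libraries were all below both PBS libraries. Bst2 was above both PBS libraries in all exosome libraries but KO2 C, with a log2 difference of 1.00 in WT (SE 0.48, 95% interval -0.049 to 2.05). Cmpk2, the mitochondrial nucleotide kinase beside Rsad2 on chromosome 12, was at 1167 and 983 in PBS, 12110.2, 2393 and 777 in WT, 11969, 1356 and 378 in KO1, and 10406, 5254 and 538 in KO2, with the same order of letters.

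All 7 nuclear and DNA-binding genes were higher. Sp100 was at 24.9 and 7.93 in PBS, 959, 167 and 357 in WT, 1096, 620.1 and 96.8 in KO1, and 749, 794 and 121 in KO2. Ifi207 was at 710.4 and 993 in PBS, 6234, 356 and 3533 in WT, 6675, 402 and 2538 in KO1, and 3116, 3189 and 1756 in KO2. Phf11d was at 1862 and 1164 in PBS, 8539, 2759 and 2500.4 in WT, 9601, 2156 and 1759 in KO1, and 6824, 5507 and 1328 in KO2. For Sp100 every exosome library was above both PBS libraries, which among the members was so for Parp12 and Sp100 alone (1.68% of all genes). Without PBS A that count was 16 (7.39% of all genes), and it was 6 without PBS B (9.10%) or KO2 C (2.01%). Ifi207 and Sp100 broke the order of the letters. B was below C in WT and KO1 for Ifi207 and in WT for Sp100, and A was below B in KO2 for both.

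Of the ADP-ribosylation genes 3 of 4 were higher. Parp12 was at 700.0 and 549 in PBS, 3941, 2327 and 839 in WT, 5306, 1099.7 and 1276 in KO1, and 4783, 1057 and 1269 in KO2, with every exosome library above PBS and those lettered A highest. The Schlafen and growth or death control group had 5 of 5 genes higher. Slfn2, needed for quiescence of immune cells, was at 3763 and 4369 in PBS, 12636, 6780.1 and 4178 in WT, 12415, 5713 and 3440.1 in KO1, and 10020.4, 5930.3 and 3296 in KO2. Slfn5, a nuclear regulator of transcription, was at 415 and 865 in PBS, 2152, 1507 and 1886 in WT, 4197, 929 and 1041 in KO1, and 2882, 2699.8 and 793 in KO2. All WT libraries of Slfn5 were above both PBS libraries, while Slfn2 in WT C lay between them. In the remaining group 7 of 8 genes were higher. Lgals3bp was at 7618 and 5846 in PBS, 36229.7, 14934 and 8599.6 in WT, 29571, 12409.7 and 5907 in KO1, and 29704, 14131 and 5666 in KO2. Lgals9 was at 6243 and 5259 in PBS, 10671, 7851 and 6659 in WT, 14404, 4264 and 3879.7 in KO1, and 7908, 7421 and 5162 in KO2. Both separated WT from PBS, and in both KO2 C lay below PBS. For Lgals9, KO1 B and KO1 C lay below PBS as well. Ifi27 ran from 1835 to 2790.3 counts, and was the second member that was lower in WT, by 0.04.

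Parp9 went against the other members in microglia. It binds ADP-ribose and works as a pair with the ubiquitin ligase Dtx3l, whose gene starts next to it on chromosome 16 (35926515 to 35939027 for Dtx3l and 35938470 to 35972621 for Parp9, GRCm38.p6). Parp9 was at 605 and 233 in PBS, 122, 8.59 and 24.0 in WT, 162, 54.6 and 13 in KO1, and 135, 42.2 and 129 in KO2. All 9 exosome libraries were below both PBS libraries, a pattern met by 2.05% of all genes (8.81% had all WT libraries below PBS), and the log2 difference of WT from PBS was -0.34 (SE 0.13, adjusted p = 0.907 in limma with Benjamini-Hochberg adjustment). Dtx3l was at 389 and 152 in PBS, 2280.0, 487 and 256 in WT, 1335, 1289 and 203 in KO1, and 4052, 433 and 302 in KO2, higher than PBS of the same letter in each of the 6 pairs. Parp14, in the same stretch of chromosome 16, was at 1024 and 369.9 in PBS, 3916, 2819.7 and 605 in WT, 2444, 842 and 566 in KO1, and 2415, 1653 and 222 in KO2, also high in the libraries lettered A. In endothelial cells Parp9 was at 259, 82.2 and 70.0 in PBS, 88.8 and 767 in WT, 237, 299 and 15.1 in KO1, and 109 and 138 in KO2, with WT A inside the PBS range and WT B above it. The spans of Parp9 and Dtx3l overlap, and the sources used here do not say whether strand was used in counting, so their split is uncertain.

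Slfn5 lay on opposite sides of PBS in the 2 cell types. In endothelial cells it was at 2817, 2096 and 2474 in PBS, 1785 and 1428 in WT, 4612, 2079.6 and 1454 in KO1, and 6882 and 3793 in KO2, with both WT libraries below all PBS libraries, which 17.8% of all genes met. KO1 A and KO2 B and C were above PBS. In microglia all WT libraries lay above both PBS libraries, which 7.81% of all genes met. The WT over PBS ratio of means was 0.652 in endothelial cells and 2.89 in microglia. The log2 differences were -0.13 (SE 0.13) and 0.55 (SE 0.31), and since the tables were normalised separately their difference was not tested.

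**Figure D4:**
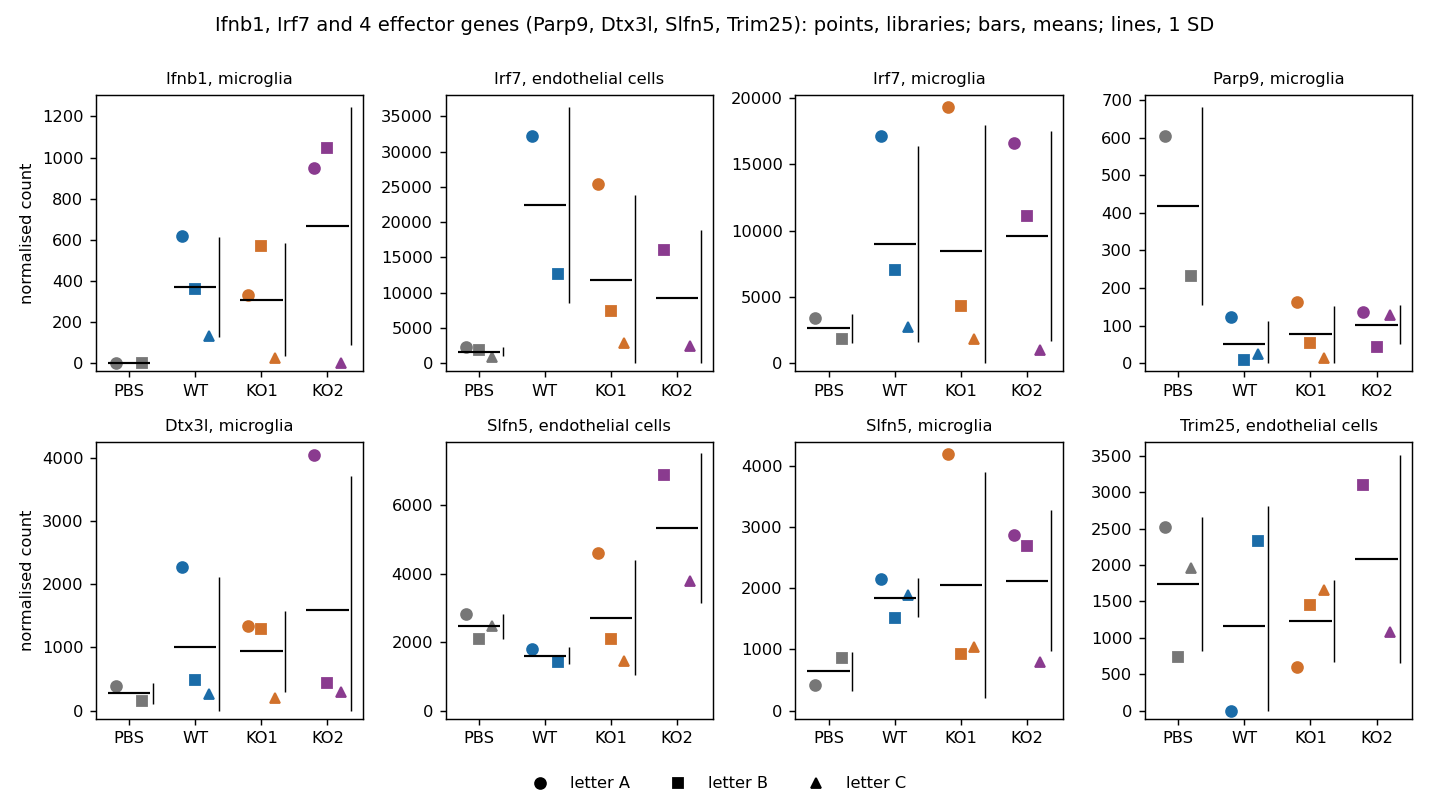
Normalised counts (linear axes) by group for Ifnb1, Irf7 and 4 effector genes; points are libraries with shapes for the letters, horizontal bars are group means and vertical lines show 1 SD, cut at 0. Ifnb1 is at 0 in both PBS libraries of microglia, Irf7 follows the letters, Parp9 in microglia is lower in every exosome library than in PBS, and Slfn5 is below PBS in WT endothelial cells and above it in WT microglia.

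Effector genes also followed the letters. Within a letter, each exosome library was set against the PBS library of that letter, as ratios of counts plus 10. In endothelial cells the median ratio over the members was 3.79 in WT A, 3.44 in KO1 A, 2.47 in WT B, 2.02 in KO1 B, 3.48 for KO2 B, 1.41 in KO1 C and 1.09 in KO2 C. In microglia it was 4.95 in WT A, 4.96 in KO1 A, 3.65 in KO2 A, 2.2 in WT B, 1.77 in KO1 B and 3.13 for KO2 B. No ratio could be formed for the C libraries of microglia. The median over all genes of the cell type lay between -0.04 and 0.00 on the log2 scale in every pair. The A and B pairs thus had member medians of 1.77 or more, and the C pairs of endothelial cells were the lowest. In microglia 32 of 44 members were higher than PBS of the same letter in all 6 pairs, beside 6.21% of all genes, and 1, Parp9, was lower in all, beside 7.07%. In endothelial cells 15 of 43 were higher in all 7 pairs, beside 2.76% of all genes: Bst2, Cmpk2, Eif2ak2, Herc6, Ifi44, Ifit3, Ifitm3, Isg15, Lgals3bp, Phf11d, Rsad2, Samd9l, Slfn2, Trim30a and Xaf1. None was lower in all 7, beside 4.04%.

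**Figure D5:**
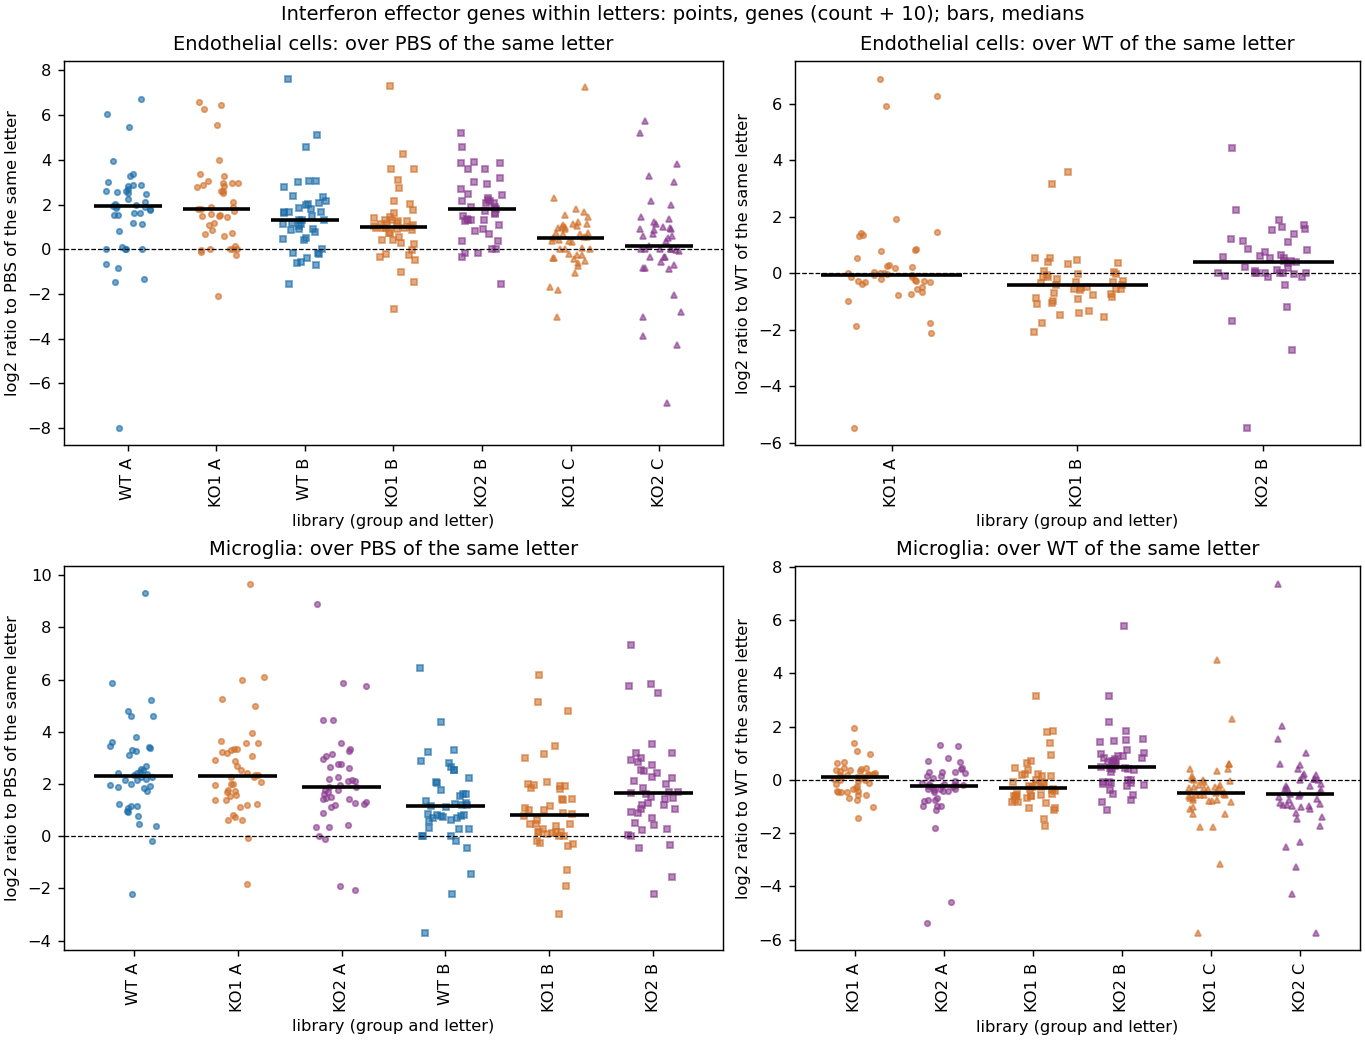
Each point is 1 effector gene in 1 library, as log2 of its count plus 10 over that of the PBS library (left) or WT library (right) of the same letter; bars are medians and shapes the letters, with endothelial cells above and microglia below. The medians over PBS step down from A to C in endothelial cells apart from KO2 B, and the medians over WT scatter on both sides of 0.

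Among exosome libraries alone, every library lettered A was above every library lettered C for 39 of 44 members in microglia, beside 7.96% of all genes. In endothelial cells this was so for 29 of 43, beside 14.3%. There the libraries lettered A were of WT and KO1 and those lettered C of KO1 and KO2, so letter and exosome group are mixed. Ratios to PBS in microglia exist for A and B only, and are given here as plain ratios of counts, with nothing added. Rsad2 was at 13.8 times PBS in WT A, 11.8 in KO1 A and 7.87 in KO2 A. In the B pairs it was at 4.71, 3.52 and 8.02, so that KO2 B was not below KO2 A. Usp18 was 12.4, 12.1 and 9.79 times PBS in the A pairs and 9.59, 4.36 and 7.40 in the B pairs. The summed members were 0.397, 0.338 and 0.247% of endothelial PBS A, B and C, and 0.25% and 0.199% of microglial PBS A and B. In the exosome libraries of microglia they were 1.22, 0.46 and 0.276% for WT, 1.17, 0.354 and 0.204% for KO1, and 0.943, 0.632 and 0.197% for KO2. What the letters stand for was not given, and their part in these differences was not tested.

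Exosomes of the knockouts were compared with WT exosomes. In endothelial cells 32 of 43 members were lower in the mean of KO1 and KO2 and 11 higher, with a median log2 difference of -0.15 beside 0.01 over all genes. None passed the test: the lowest adjusted p was 0.540 (limma, Benjamini-Hochberg), 0.0308% of all genes were called, and 3 members had an unadjusted p under 0.05, beside 8.06% of all genes. That number ran from 1 (without KO2 C) to 10 (without KO1 A or without KO2 B), and was 7 without WT B. The 3 were Sp100 (difference -0.31, 95% interval -0.56 to -0.054), Ifi35 (-0.22, -0.41 to -0.033) and Slfn5 (0.30, 0.033 to 0.56). For Bst2 the difference was -0.40, with an interval of -0.84 to 0.042, and for Ifi207 -0.13, with -0.28 to 0.0058. No member had all knockout libraries below both WT libraries (4.25% of all genes) or all above (3.79%). WT has no C library there, and without the C libraries the median difference was -0.02. The median difference was -0.03 without WT A, -0.28 without WT B and -0.07 without KO2 C. Within letters the median KO1 over WT ratio was 0.973 for A and 0.747 for B, and KO2 over WT was 1.33 for B, on the other side of 1 from KO1 B. Taken alone in limma, KO1 minus WT (0.00771% of all genes called) and KO2 minus WT (0.0231%) called no member. KO1 minus WT had 4 members at an unadjusted p under 0.05, Ifi207, Ifi35 and Sp100 lower and Oas1a higher, beside 6.89% of all genes. That count ran from 1 (without PBS B, PBS C or KO1 C) to 9 (without KO1 A), and was 2 without PBS A or KO1 B and 7 without WT B. KO2 minus WT had 2, Sp100 lower and Slfn5 higher, beside 7.35%. It ran from 1 (without PBS A, PBS B, PBS C or KO2 C) to 11 (without KO2 B), and was 4 without WT A, 8 without WT B and 5 without KO1 A. Between the knockouts, KO1 minus KO2, no member was called (0% of all genes), and 2 had an unadjusted p under 0.05, Oas1a higher and Slfn5 lower in KO1, beside 5.69%. The 2 became 5 without KO1 A, 6 without KO2 B, 4 without KO2 C and 1 without any 1 of the PBS or WT libraries or KO1 B.

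In microglia 29 of 44 members were lower and 15 higher in the knockout mean than in WT, with a median log2 difference of -0.06. None passed the test: the lowest adjusted p was 1.00 (limma, Benjamini-Hochberg), no gene of any kind was called (0% of all genes), and 1 member, Oas1a, had an unadjusted p under 0.05, beside 3.34% of all genes. The median turned positive without WT A (0.25), without KO1 B (0.02), without KO1 C (0.07) and without KO2 C (0.07), so its sign rested on single libraries. Oas1a was at 27.8 and 210.0 in PBS, 406, 37.6 and 527 in WT, 465, 18.2 and 0 in KO1, and 0, 63.4 and 0 in KO2, and the groups overlapped (difference -0.43, 95% interval -0.85 to -0.019). Epsti1 was at 124 and 0 in PBS, 243, 0 and 146 in WT, 969, 78.5 and 54.7 in KO1, and 403, 536 and 16.9 in KO2, and Oas3 at 289 and 132 in PBS, 1427, 234 and 185 in WT, 947, 272 and 119 in KO1, and 397, 310.2 and 0 in KO2, with overlapping groups in both. The differences with the next smallest p-values were those of Epsti1 (0.28, -0.17 to 0.74), Parp14 (-0.38, -1.01 to 0.25), Eif2ak2 (0.12, -0.11 to 0.35) and Oas3 (-0.23, -0.69 to 0.23). No member had all knockout libraries below all WT libraries (0.826% of all genes) or all above (0.787%). Within letters KO1 over WT was 1.07 for A, 0.81 for B and 0.712 for C, and KO2 over WT was 0.861, 1.40 and 0.693. The 2 knockouts thus stood on the same side of WT in C and on opposite sides in A and B. KO1 minus WT, KO2 minus WT and KO1 minus KO2 called no member in limma (0% of all genes in each). At an unadjusted p under 0.05 they had 0 (3.82% of all genes), 1, Oas1a (3.05%), and 0 (3.62%) members. With 1 library left out these counts ran from 0 to 2 (without WT C or KO1 A), from 0 (without WT A or KO2 C) to 1, and from 0 to 1 (without KO1 A, KO1 C, KO2 A or KO2 C). For the knockout mean the 1 became 2 without KO1 A and 0 without PBS A, PBS B, WT A, KO1 B, KO1 C, KO2 A or KO2 C.

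The knockouts alone against PBS gave 38 of 43 members higher in endothelial cells (median 0.16) and 40 of 44 in microglia (median 0.48), with none called (0.116% and 0.00787% of all genes) and 4 (6.65%) and 3 (4.96%) at an unadjusted p under 0.05. In endothelial cells the 4 became 0 without PBS C, 1 without PBS A, PBS B or KO2 B, 7 without WT A or WT B, 11 without KO1 C and 16 without KO2 C. In microglia the 3 became 1 without PBS A, PBS B or KO2 B, 2 without WT B, KO1 A or KO2 A and 8 without KO2 C, or 19 without the C libraries. With all exosome groups pooled against PBS, 39 of 43 members were higher in endothelial cells (median 0.20) and 41 of 44 in microglia (median 0.50). None passed the test in limma, where 0.139% and 0.00787% of all genes were called, and 12 (7.95% of all genes) and 2 (5.19%) members had an unadjusted p under 0.05. With 1 library left out, the 12 became 3 (without PBS B or PBS C) to 22 (without KO2 C), and the 2 became 0 (without PBS A) to 8 (without KO2 C), or 21 without the C libraries. Bst2, Eif2ak2, Rsad2, Samd9l and Trim30a had every exosome library above every PBS library in endothelial cells, beside 1.05% of all genes, and none had every one below (1.84%). That count of 5 was 11 without PBS A, 12 without KO1 C, 11 without KO2 C and 23 (4.62% of all genes) without the C libraries. In microglia the count without the C libraries was also 23 (3.90%).

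The authors' deposited tables list genes from a likelihood ratio test, which compares the fit of nested models and gives no direction. They list 10 of the 44 members in endothelial cells (22.7%, beside 1.76% of all genes) and 19 of the 44 in microglia (43.2%, beside 1.16%), with 7 in both: Bst2, Herc6, Ifit3, Ifitm3, Lgals3bp, Rsad2 and Slfn2. In endothelial cells the authors' deposited adjusted p was 1.64e-07 for Ifitm3, 2.13e-07 for Slfn2 and 0.0119 for Slfn5. In microglia the authors' deposited adjusted p was 2.29e-21 for Ifit1, 5.39e-15 for Usp18 and 2.22e-13 for Lgals3bp. The F test of limma over the 4 groups called none of the members in either cell type, where 0.0154% and 0% of all genes were called. The sources used here do not give the terms of the authors' model.

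Of a list of 37 other genes of the pathway, the ligands were nearly silent. All 12 ligands were at 0 in every endothelial library except Ifnk, at 6.41 counts in PBS C and 17.9 in KO1 B. In microglia 11 were at 0 throughout, and Ifnb1, interferon beta, was at 0 and 0 in PBS, 619.9, 359.6 and 130.4 in WT, 331, 572 and 23.6 in KO1, and 951, 1046 and 0 in KO2. It thus had no reads in either PBS library and had reads in all exosome libraries but KO2 C. Its log2 difference in WT was 0.79 (SE 0.29, adjusted p = 0.907 in limma with Benjamini-Hochberg adjustment). A count of 0 means no reads at the depth of that library and leaves a low level possible.

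Of the 6 receptors, 6 were higher with WT in endothelial cells and 2 higher and 4 lower in microglia, with none passing the test. Ifnar1 was at 1599, 1734 and 2031 in PBS, 2009 and 1629 in WT, 1518, 2355 and 1500 in KO1, and 1066 and 2318 in KO2 in endothelial cells and at 1921 and 1893 in PBS, 932, 1467 and 1637 in WT, 1439, 1388 and 1396 in KO1, and 1148, 1620.4 and 1362 in KO2 in microglia. Groups overlapped in endothelial cells, whereas in microglia both PBS libraries were above all 9 exosome libraries, which 2.05% of all genes met. Among the 11 kinases and transcription factors, 9 were higher with WT in endothelial cells and 8 in microglia, with none passing the test. Irf7 was at 2219, 1848 and 853 in PBS, 32219.9 and 12585 in WT, 25396, 7320.5 and 2801 in KO1, and 16057 and 2477 in KO2 in endothelial cells. In microglia Irf7 was at 3416 and 1853 in PBS, 17161, 7056 and 2727 in WT, 19316, 4329 and 1838 in KO1, and 16631, 11099 and 1021 in KO2. All exosome libraries were above PBS in endothelial cells, with KO2 C and KO1 C the nearest, and in microglia the libraries lettered C lay inside or below the PBS range. The log2 difference for WT was 1.37 (SE 0.41) in endothelial cells and 1.09 (SE 0.88) in microglia. Stat2 was at 2049.9, 902 and 662 in PBS, 6363 and 5004 in WT, 2254, 2327 and 0 in KO1, and 1973 and 1717 in KO2 in endothelial cells and Irf9 at 5011, 3558 and 4076 in PBS, 9703 and 4088 in WT, 10441, 5233 and 2247 in KO1, and 7446 and 3561 in KO2. Both WT libraries of Stat2 were above PBS, while WT B of Irf9 lay inside it. Of the 8 restraints, 3 were higher and 5 lower in endothelial cells and 5 higher and 3 lower in microglia, again with none passing the test. Socs1, which blocks the receptor kinases, was at 186 and 363 in PBS, 881, 383 and 273 in WT, 639.8, 274 and 320.1 in KO1, and 278, 398 and 208 in KO2 in microglia, high in WT A and KO1 A.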

How the data were processed

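RNA was sequenced from sorted endothelial cells (10 libraries) and microglia (11). The submitters' processing notes name FastQC 0.11.7, Trimmomatic 0.38, Salmon 0.10.0, DESeq2 1.18.1 and GRCm38.p6, without roles or order. The authors deposited, per cell type, a table of variance-stabilised log2 values. They also deposited a list from a likelihood ratio test, with mean normalised counts (signal), log2 fold changes, test statistics (scores) and p-values, whose model terms the sources used here do not give. No column of the tables lacked a sample (0 of each).

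Normalised counts were recovered by inverting the transform, exactly in endothelial cells and by a monotone curve in microglia, where means of genes held out differed by at most 1.22% and values under 54.3 counts are approximate. Reads were estimated from the size of 1 read, with 89.7 to 95.5% of low values within 0.05 of whole. Estimated depth was 18.3 to 35.6 M reads in endothelial cells and 21.5 to 44.2 M in microglia, and it limits the precision of low counts. R 4.3.3 and limma 3.58.1 compared the groups, with the variance following the mean (trend) and 4 groups in 1 fit on the log2 values as the authors deposited them, for genes above the floor in at least 2 libraries and a Benjamini-Hochberg threshold of 0.05. The script was tested on simulated data.

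The members and gene lists were chosen with earlier results of these data known. Named in each cell type were the 2 members per role of highest mean count, the 5 of smallest p in WT minus PBS and in knockouts minus WT, members past the threshold, and members against the median by over 1 SE. Other members, and the pathway genes beside Ifnb1, were chosen for mention after their values were seen. Mx1 and Mx2, 3 labelled libraries and 10 promoters are not analysed here. Alternatives were other filters, the log2 of counts plus 1 or plus 50, no trend, only the groups compared, a replicate block, and libraries left out.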

Additional observations from a re-analysis of the deposited data

Results flagged for a closer look

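Slfn5 was singled out because all WT libraries lay on 1 side of PBS in 1 cell type and on the opposite side in the other. The ratio of means of WT over PBS was 0.652 in endothelial cells, where both WT libraries lay below all 3 PBS libraries, and 2.89 in microglia, where all 3 WT libraries lay above both PBS libraries. Of all genes, 17.8% had every WT library below every PBS library in endothelial cells, and 7.81% had every WT library above PBS in microglia. In endothelial cells KO1 A, KO2 B and KO2 C of Slfn5 lay above PBS. The difference between the cell types was not tested.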

How the results depend on the processing

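Counts of called members, member medians and shares of members higher kept their direction and side of the threshold in 482 recomputations, while 25 moved, 5 reversed and 7 gained calls. For single genes 386 did, 1 reversed and 1 gained a call. Keeping only genes with a mean at least 1 above the floor left 6 members in endothelial cells, whose medians were 0.72 for WT minus PBS, -0.32 for knockouts minus WT (0% higher) and 0.56 for all exosomes minus PBS. On log2 counts plus 1 these medians were 1.83, -0.78 and 1.23 in endothelial cells, where the median of all genes moved to -0.25, 0.050 and -0.29, and 1.42 (WT minus PBS) and 1.27 (exosomes minus PBS) in microglia. With counts plus 50 they were 1.67, -0.77, 1.22, 1.33 and 1.16. Without the C libraries the share of members higher in knockouts than in WT was 41.9% in endothelial cells and 56.8% in microglia, where the median was 0.026.

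The letters were not taken as pairs, since their meaning is not given. Correlations were taken between the deviations of libraries from their group means on the log2 scale, not between whole libraries. Of the same-letter pairs, 7 of 12 in endothelial cells and 7 of 15 in microglia correlated over 0.1. All same-letter values were above 0, from 0.022 to 0.226 and from 0.012 to 0.322. Pairs of a different letter and group ran from -0.226 to 0.112 and from -0.239 to 0.062. In a group of 2 libraries the deviations are equal and opposite, so part of the negative range is built in. Set against libraries of other groups, 9 of 10 and 10 of 11 libraries correlated best with their own letter. With the replicate block of the letter in limma, microglia had 5 members called in WT minus PBS (Bst2, Ifit1, Ifitm3, Lgals3bp and Rsad2; Bst2 at 1.28, adjusted p = 0.034), 3 in knockouts minus PBS, 7 in exosomes minus PBS and 1 (Ifit1) among 4 groups, and endothelial cells 0. All genes called then were 19, 11, 30 and 7 in microglia.

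With 1 library left out, the share of members higher in knockouts than in WT ran from 16.3 to 39.5% in endothelial cells. In microglia it ran from 15.9 to 83.7% and its median from -0.28 to 0.25. Calls among KO2 minus WT, KO1 minus KO2 and the 4 groups in endothelial cells ran from 0 to 1 (Slfn8, without KO2 B), and Trim25 in WT minus PBS from -0.58 to 0.11. All genes called in endothelial cells ran from 0 to 32 over the alternatives for WT minus PBS and from 0 to 77 for knockouts minus WT. The causes were not tested. With PBS at 2 or 3 libraries and values near 0 for Oas1a, Oas2, Oas3, Ifit2, Ifi207 and Slfn8, depth limits what can be said of these genes.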

Other observations

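Cmpk2 and Rsad2 lie next to each other on chromosome 12. In endothelial cells Cmpk2 was at 458, 208 and 219 in PBS, 1636 and 1755 in WT, 4556, 662 and 366 in KO1, and 2585 and 576 in KO2, and in KO1 and KO2 it took the same order of letters as Rsad2. In WT, B was slightly above A for Cmpk2 and below A for Rsad2.

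Ifi44, an interferon-induced cytosolic protein, was at 0 and 1328 in PBS, 6402, 1595 and 0 in WT, 8183, 1494 and 0 in KO1, and 4747, 4274 and 1636 in KO2 in microglia. It had no reads in PBS A, WT C and KO1 C. In endothelial cells it was at 862, 1085 and 254 in PBS, 13536 and 5692 in WT, 13872, 2698 and 419 in KO1, and 8691 and 2122 in KO2, with reads in all 10 libraries. Samd9l was at 27.7 and 0 in PBS, 1403, 857 and 0 in WT, 1443, 718 and 218 in KO1, and 825, 1608 and 10.1 in KO2 in microglia, at or near 0 in PBS, WT C and KO2 C. These genes were chosen after their values were seen.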
